A study of Homo sapiens with 3 samples.

Results

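The comparison described here sets a library from QBC-939 cells overexpressing miR-183-5p against a library from the same cells carrying a control labelled NC. QBC-939 is a human cell line labelled as cholangiocarcinoma, a cancer of the bile duct epithelium, and its genotype is given as WT for all samples. Each group is 1 library of total RNA, and a library of cells overexpressing miR-182-5p completes the series. The labels name no time after treatment and no dose. Treatment labels read oe while the titles of the microRNA libraries carry mim, so whether a vector or a mimic was used is not clear. The level of miR-183-5p itself is not analysed here, so its overexpression was not checked. The genes kept were protein-coding, had at least 200 counts in 1 or both of the libraries compared, and overlapped no other gene of the table on the same strand. The table lists 30923 genes, of which 15591 were protein-coding, 11291 of these reached 200 counts, 2937 were left out for overlap, and 8354 remained. Among these 8354 genes 3808 overlapped a gene on the opposite strand, and whether the counting separated strands is not stated. The count threshold was met in only 1 library by 166 genes, 111 times with miR-183-5p and 55 times in NC; such a gene had to differ to enter, and the counts given with each gene show which these are. At the edge of the threshold, GAL3ST1 entered with 200 counts in NC and 137 with miR-183-5p, while C7orf31 stayed out with 146 and 199.

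A microRNA is loaded into an Argonaute protein and guides it to messenger RNAs, mostly through pairing of its seed, the bases next to its 5′ end, with sites in the 3′ untranslated region (UTR). Paired messages are repressed and often degraded, so direct targets are usually somewhat less abundant when the microRNA is overexpressed. miR-183-5p is made from one primary transcript together with miR-96-5p and miR-182-5p, is abundant in sensory cells, and is often raised in carcinomas.

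The mature sequences are shown because the sites searched for in the UTRs follow from their seeds. They come from RefSeq (GRCh38.p14), the capitals mark bases 2 to 8, and miR-183-5p lies on the minus strand at chr7:129774967-129774988.
miR-183-5p: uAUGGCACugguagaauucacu
miR-182-5p: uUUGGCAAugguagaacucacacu
miR-96-5p: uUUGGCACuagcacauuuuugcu
The 3 seeds differ from each other over bases 2 to 8, so a 7-base match for one is not a 7-base match for another. The shorter 6-base match TGCCAA is the same for miR-182-5p and miR-96-5p.

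The miR-183-5p library held 67427313 counts and the NC library 64516706. Ratios below are CPM, the counts scaled to the library total, with miR-183-5p over CPM in NC, and each bracketed range is the exact 95% interval for counting error only. Each group is a single library, so the conditions were not tested and a difference could belong to the cultures or libraries. Most epithelial markers looked at were abundant in both libraries, with KRT8 at 3423 CPM in NC and 3003 with miR-183-5p, and EPCAM at 498.5 and 514. KRT7, a keratin of the same marker class, was low, at 4.99 and 6.96 CPM. The biliary keratin KRT19 was at 229.1 and 214.9 CPM and the biliary transcription factor SOX9 at 119.9 and 103.4. Vimentin (VIM), a mesenchymal marker, was at 3.70 and 3.71 CPM, and COL1A1, another of that class, at 10.4 and 12.25 CPM. PTPRC (immune), LUM (fibroblast) and APOA1 (hepatocyte) had 0 counts in both libraries, which allows each of them up to 3 counts per library, while ALB had 5 and 9. Other markers of those classes were counted: LYZ, an immune marker that epithelia also make, stood at 1596 CPM in NC and 1450 with miR-183-5p, and PDGFRB (fibroblast) had 49 and 17 counts. PECAM1 (endothelial) had 69 and 70 counts and VWF (endothelial) 11 and 43. TTR (hepatocyte) had 28 and 27 counts, and SERPINA1, the 1 gene kept of a wider hepatocyte list, stood at 995 and 1150 CPM. The part of other cell types in the results was not tested. Since these are bulk samples, fewer cells with a message and less of it per cell cannot be told apart. Mitochondrial genes took 13.5% of counts in NC and 16.1% with miR-183-5p (16.7% with miR-182-5p), and this larger share lowers the CPM of every nuclear gene by 0.0438 on the log2 scale.

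Most genes lay close to equality. Between a ratio of 0.8 and its inverse were 7575 of the 8354 genes, and the median log2 ratio was -0.04 with quartiles of -0.15 and 0.07. A gene is called lower here at a ratio of 0.8 or less and higher at the inverse of that or more, which is 0.32 either way on the log2 scale; these are rules of size and not tests. Called higher were 346 genes (4.14%) and called lower were 433 (5.18%). The balance of these calls turned with the scaling: 44.4% of calls were higher on library totals, but 60.1% were higher on nuclear totals, with 441 higher and 293 lower, and 64.7% after each ratio was set against genes of like transcript length, with 455 higher and 248 lower. At 1.5-fold there were 80 higher (0.958%) and 69 lower (0.826%), and at 2-fold 11 higher (0.132%) and 9 lower (0.108%). Under 200 counts in NC were 42 of the 80 genes higher at 1.5-fold and 9 of the 11 at 2-fold. Under 200 counts with miR-183-5p were 22 of the 69 lower genes and 4 of the 9. These entered only through the library in which they were higher, so the count threshold itself shaped these tails. The counting interval lay wholly above 1 for 22.4% of genes and below 1 for 40.3%. Genes with few counts held most of the calls: in the lowest quintile by CPM 14.4% were called higher and 12.9% lower, against 0.479% and 1.38% in the highest quintile.

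**Figure D1:**
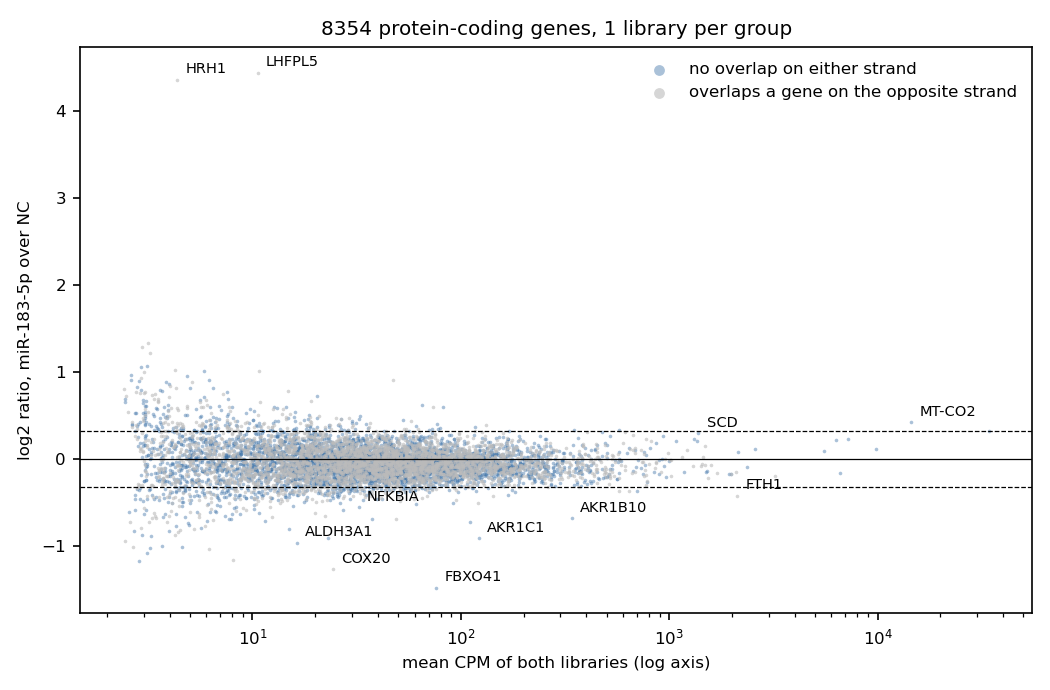
Each point is 1 of 8354 genes; the horizontal axis is the mean CPM of both libraries on a log axis, the vertical axis the log2 ratio of miR-183-5p over NC, and the dashed lines mark the ratios at which genes are called. LHFPL5 and HRH1 stand far above the rest, the scatter narrows from the lowest to the highest CPM, and AKR1C1 and AKR1B10 lie low at well-counted levels.

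The median of genes carrying a miR-183-5p seed site was 0.016 above that of genes without one on the log2 scale by the main measure, and below it by stricter definitions or at like transcript length. A site was the 7-base match GTGCCAT in the longest annotated 3′ UTR of the gene, read on the message strand from GENCODE release 29, and 8330 genes had such a UTR. The median log2 ratio was -0.03 over the 1017 genes that hold a site and -0.05 over the 4991 that lack even the 6-base core TGCCAT. Called lower were 5.11% of genes with a site and 5.73% of genes without. In 3 bins of UTR length the shares were 9.64% with a site and 6.37% without in the shortest, 7.06% and 5.13% in the middle and 3.83% and 5.04% in the longest, so their order turned with UTR length. The 196 genes with the 8-base form GTGCCATA, whose median was -0.06, differed from genes without a site by -0.0079 on the log2 scale, and the 124 genes with at least 2 sites differed by -0.0082. Set against genes of like transcript length, genes with a site differed from genes without by -0.0158, in place of 0.016. The median UTR of genes with a site was 3036 bases long and that of genes without 822 bases. Sites of microRNAs not overexpressed in this library gave differences of a like size: 0.0136 for miR-182-5p, 0.0205 for miR-96-5p, 0.037 for let-7a-5p, 0.00956 for miR-16-5p and 0.0267 for miR-21-5p.

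**Figure D2:**
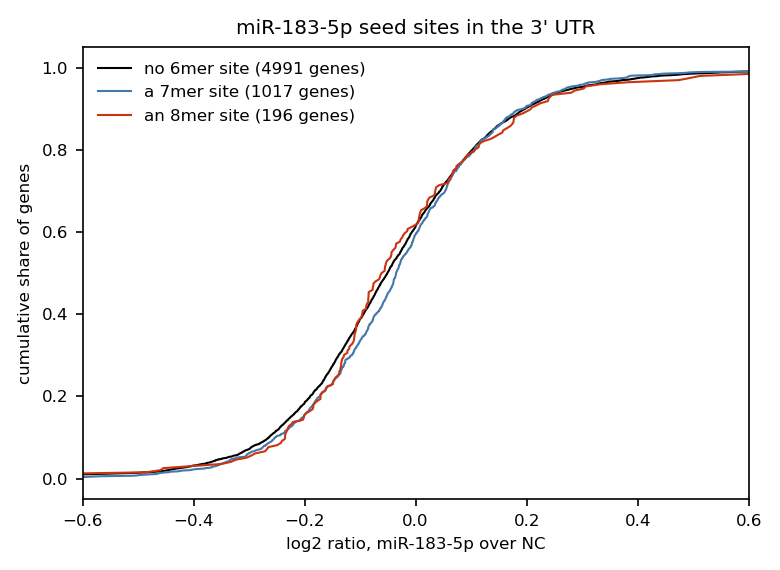
The vertical axis is the cumulative share of genes at or below each log2 ratio of miR-183-5p over NC (horizontal axis), for genes with no 6-base core (4991), with a 7-base site (1017) and with an 8-base site (196). The 3 curves run close together over the whole range shown.

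Genes reported in the literature as miR-183-5p targets were measured one by one. Of 30 listed, 19 were among the genes kept, and 3 of them were called lower and 0 higher, beside 5.18% and 4.14% of all genes; their median log2 ratio was -0.06, against -0.04 for all 8354 genes. The counting interval lay below 1 for 10 of the 19 (40.3% of all genes) and above 1 for 2 (22.4%). HPGD, the enzyme that inactivates prostaglandin E2, had 487 counts in NC, 336 with miR-183-5p and 320 with miR-182-5p, a ratio of 0.660 (0.573 to 0.760) for miR-183-5p. Its searched UTR of 1907 bases held neither GTGCCAT nor TGCCAT, which says only that these letters are not in that annotated sequence. SOCS6, an adaptor that restrains receptor tyrosine kinases, had 1909 and 1505 counts, a ratio of 0.754 (0.705 to 0.807), with 1 site. UVRAG, an autophagy factor, stood at 0.768 (0.714 to 0.825) with no 7-base site. With miR-182-5p the ratios to NC were 0.687 for HPGD, 0.802 for SOCS6 and 0.788 for UVRAG. All of these genes thus lay below 1 in both microRNA libraries.

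The sites of 4 listed targets are shown because their UTRs match the seed while their ratios differ; the capitals mark the 7-base match and the coordinates are GRCh38.
FOXO1, chr13:40558806-40558827, minus strand: tgtagataaggactGTGCCATt
KIF2A, chr5:62386173-62386194, plus strand: taattttgcaggatGTGCCATa
EZR, chr6:158766539-158766560, minus strand: caggacttccatctGTGCCATa
ITGB1, chr10:32900551-32900572, minus strand: cttactttgagttaGTGCCATa
FOXO1, a transcription factor of stress resistance, has this and another site and had 884 counts in NC and 742 with miR-183-5p, a ratio of 0.803 (0.727 to 0.886). KIF2A, a microtubule depolymerising kinesin, stood at 0.894 (0.864 to 0.925), and EZR, which links actin to the membrane, at 0.912 (0.889 to 0.935). ITGB1, the beta subunit shared by many integrins, has 2 sites and stood at 1.02 (1.001 to 1.03), with 28964 and 30798 counts. AKAP12, a scaffold for protein kinase A, has 3 sites and stood at 0.957 (0.921 to 0.994). With miR-182-5p the ratios to NC were 0.855 for FOXO1, 0.812 for KIF2A, 0.871 for EZR, 1.04 for ITGB1 and 0.803 for AKAP12. The 14 listed targets with a site had a median log2 ratio of -0.06 and the others -0.15. Targets with a ratio above 1 included BTRC, a ubiquitin ligase subunit that turns over beta-catenin, at 1.17 (1.09 to 1.247).

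The lowest genes with a site were chosen for their ratios, so their low values are a description only. SMIM27 had 231 counts in NC and 120 with miR-183-5p, but overlaps TOPORS on the opposite strand. Its sites, within chr9:32567260-32567321 of an annotated transcript, lie outside the span counted for it, chr9:32551144-32553012. Whether the counted message holds them is therefore not known. CCDC121 had 256 and 163 counts, a ratio of 0.609 (0.497 to 0.744), and stood at 1.06 with miR-182-5p.
CCDC121, chr2:27626042-27626063, minus strand: tttgtaattaatgtGTGCCATa
FOXA3, chr19:45873532-45873553, plus strand: cagtgggccaccatGTGCCATg
CCN2, chr6:131949108-131949129, minus strand: caattcaaaacattGTGCCATg
FOXA3, a forkhead factor of endoderm-derived tissues, had 923 and 592 counts, a ratio of 0.614 (0.553 to 0.681). CCN2 (CTGF), a matricellular protein induced by YAP, had 232 and 164 counts, and its ratio was 0.676 (0.550 to 0.830). The others of the 8 lowest were ITPR1 at 0.661, NSUN4 at 0.668, NAIF1 at 0.701 and MMAA at 0.707. Among all genes called lower 12.1% had a site, against 12.2% of all genes searched and 10.5% of those called higher.

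The lowest single gene was FBXO41, an F-box protein described mainly in neurons. It had 7221 counts in NC, 8215 with miR-182-5p and 2716 with miR-183-5p, a ratio of 0.360 (0.344 to 0.376), so 1 library of the 3 was low. It overlaps no gene of the table on either strand, and its UTR of 4300 bases holds the 6-base core once and no 7-base site. PEX7, the import receptor for peroxisomal matrix proteins of one class, had 254 counts in NC, 118 with miR-183-5p and 274 with miR-182-5p, a ratio of 0.445 (0.354 to 0.555); GENCODE places a snoRNA and a pseudogene on its opposite strand. GPR161, a receptor of the primary cilium, had 278, 143 and 413 counts in the same order. SPRR1B, a cornified envelope protein, had 394, 205 and 66 counts, so both microRNA libraries were low. COX20 (2205 and 961 counts), SH3BP5 (720 and 337) and BEST1 (535 and 274) were also at or under 0.490, but each overlaps a gene on the opposite strand, HNRNPU, SH3BP5-AS1 and FTH1 respectively. SH3BP5-AS1 itself had 885 counts in NC and 1583 with miR-183-5p. TBC1D3K (1941 and 1081 counts) belongs to a family of near-identical copies, so its value is uncertain.

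HRH1, the histamine H1 receptor, had 26 counts in NC, 24 with miR-182-5p and 560 with miR-183-5p, a ratio of 20.6 (13.9 to 31.8), so it was high in the miR-183-5p library alone. Its UTR holds 2 miR-183-5p sites, and it overlaps the antisense gene AC083855, which had 169 and 155 counts. LHFPL5, a subunit of the hair cell mechanotransduction complex, had 60 counts in NC, 1366 with miR-183-5p and 1497 with miR-182-5p, and was thus high in both microRNA libraries. It overlaps SRPK1 (11020 and 10263 counts) on the opposite strand. Both genes met the count threshold only through the library in which they were high. MAST4, a microtubule-associated kinase, had 460 counts in NC, 970 with miR-183-5p and 511 with miR-182-5p, a ratio of 2.02 (1.80 to 2.26), with a pseudogene and an intronic transcript on its own strand in GENCODE. Other genes past 2-fold had few counts in NC, among them KLHL31 (122 and 267) and ATAD3C (130 and 286), the latter from a family of close copies. Of the genes free of overlap just under 2-fold, ACER2, an alkaline ceramidase, had 114 and 233 counts, DHRS2, a short-chain dehydrogenase, had 117 and 231, and CDHR5, a brush border cadherin, had 278 and 548.

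Gene families were then described by lists of genes that work together, of which 55 had at least 3 members. Set against the median of all genes under the main processing and every alternative, 10 settings in all, 25 lists stayed below, 14 stayed above and 16 changed side. Scaling to nuclear totals or by the median ratio shifts all genes alike, so neither setting could move a list across that median. The mitochondrially encoded genes lay highest and the NRF2-regulated genes lowest.

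**Figure D3:**
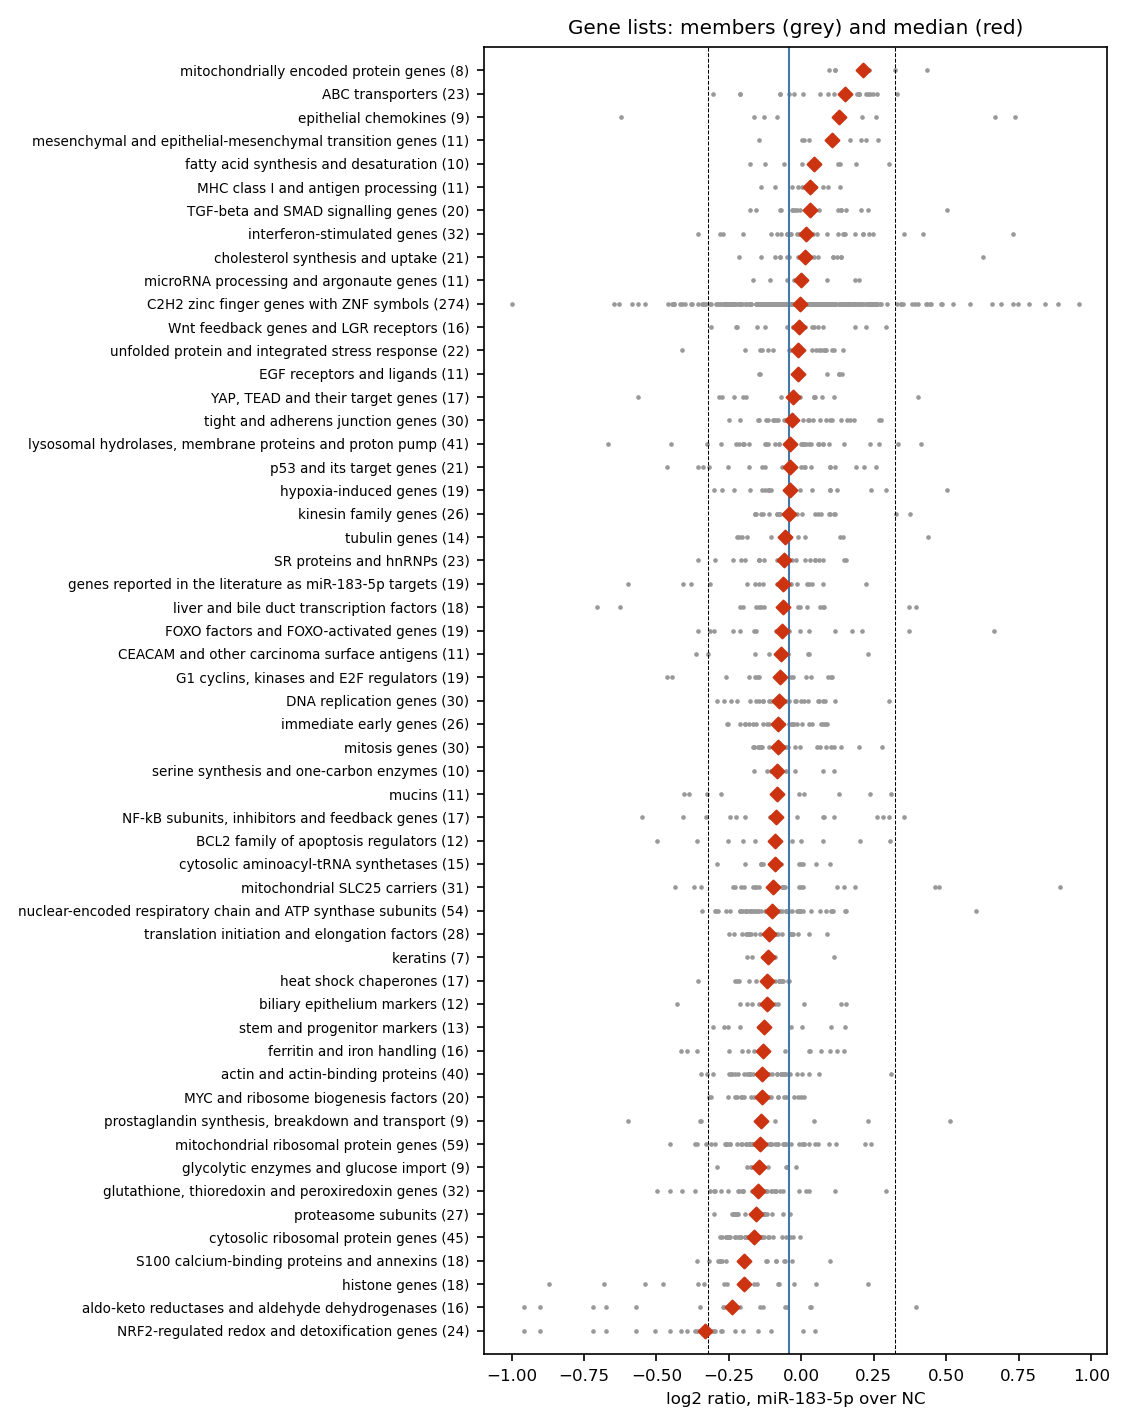
Rows are gene lists with their number of members in brackets; grey points are single genes, red diamonds the list medians, on a horizontal axis of log2 ratio of miR-183-5p over NC. The blue line is the median of all genes (-0.04) and the dashed lines the ratios at which genes are called; the NRF2-regulated list is the one whose median, -0.33, lies past the lower dashed line.

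Of 24 genes regulated by NRF2, 12 were called lower with miR-183-5p. NRF2 is a transcription factor, held back by KEAP1, that drives genes for detoxification, glutathione and thioredoxin recycling, NADPH supply and iron storage. Of 24 genes of this list 22 had a ratio below 1 (60.1% of all genes did), and for the same 22 the whole counting interval lay below 1. NFE2L2, the gene of NRF2 itself, and KEAP1 were left out for overlap. Called lower were 12 of the 24, beside 5.18% of all genes, and called higher 0, with a median log2 ratio of -0.33. On nuclear totals 10 were called lower, and 7 after the length adjustment, which left a median of -0.24; 10 of the 24 are in the shortest quintile of transcripts, whose part in the result was not tested. The list was assembled with earlier results of these data known and is not independent evidence of its direction. Without its 5 aldo-keto reductases and aldehyde dehydrogenases, 7 of 19 were called lower and the median was -0.30.

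The reductases stood lowest. ALDH3A1, which oxidises aromatic and lipid aldehydes, had 1388 counts in NC, 747 with miR-183-5p and 651 with miR-182-5p, a ratio of 0.515 (0.471 to 0.563), with an antisense gene in GENCODE. AKR1C1, which reduces ketosteroids, had 10219, 5714 and 4473 counts, a ratio of 0.535 (0.518 to 0.553). AKR1B10, which reduces retinals and lipid aldehydes, had 26961, 17654 and 14051 counts, a ratio of 0.627 (0.615 to 0.639). In each of these the NC library was the highest of the 3. AKR1C3 stood at 0.608 and AKR1C2 at 0.674, but AKR1C1, AKR1C2 and AKR1C3 are near-identical in sequence and their reads may be split between them. In the wider list of aldo-keto reductases and aldehyde dehydrogenases, which shares those 5 genes, 6 of 16 were called lower and 1 higher, ALDH3B1, at 1.31 (1.15 to 1.504). Of all genes 5.18% were called lower and 4.14% higher. On nuclear totals or after the length adjustment 5 genes of the list were called lower and 1 higher.

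Iron storage and glutathione genes lay less low but were counted deeply. The ferritin heavy chain FTH1 had 155536 counts in NC, 121791 with miR-183-5p and 83891 with miR-182-5p, a ratio of 0.749 (0.744 to 0.755), and overlaps BEST1 on the opposite strand. The light chain FTL had 50596, 41150 and 28047 counts, a ratio of 0.778 (0.768 to 0.788). HMOX1, which breaks down haem, had 474, 377 and 334. GCLM, a subunit of the rate-limiting enzyme of glutathione synthesis, had 2966, 2262 and 2009 counts, and its ratio was 0.730 (0.691 to 0.771). GPX2, a glutathione peroxidase of epithelia, had 41573, 33702 and 25812, a ratio of 0.776 (0.765 to 0.787). NQO1, a quinone reductase, stood at 0.807 (0.792 to 0.821), PRDX1, a peroxiredoxin, at 0.813 (0.803 to 0.823) and SLC7A11, the cystine importer, at 0.869 (0.852 to 0.887). ABCC2 at 1.003 (0.888 to 1.13) and ME1 at 1.03 (0.975 to 1.10) were the exceptions. The miR-182-5p ratios share the NC library with these, so the ratios of the microRNA libraries are not independent of each other. GPX4, which protects membranes from lipid peroxidation and is not in the NRF2 list, had 6939 and 5133 counts, a ratio of 0.708 (0.683 to 0.734).

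**Figure D4:**
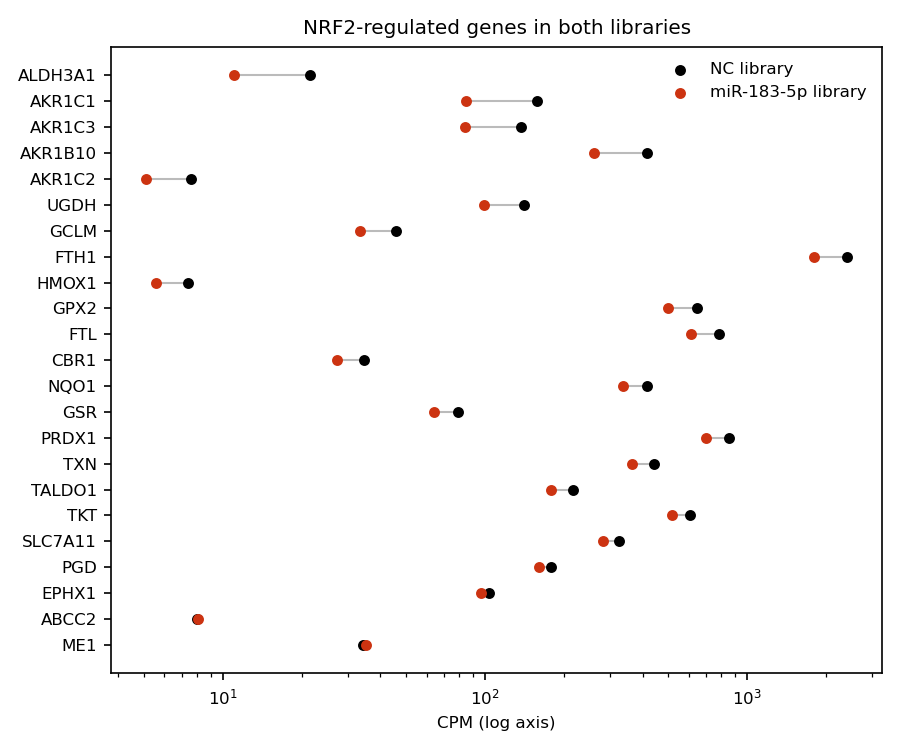
Each row is an NRF2-regulated gene, with its CPM in the NC library (black) and in the miR-183-5p library (red) on a log axis. The red point lies to the left in every row but the lowest ones, where ABCC2 and ME1 at the bottom have ratios of 1.003 and 1.03.

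The promoters of these genes were searched for the core of the antioxidant response element, the sequence NRF2 binds with small MAF proteins. The letters searched were TGACNNNGC on both strands of 300 bases, from 250 before to 50 after the RefSeq start (GRCh38.p14). A promoter was found for 16 of the 24 genes and 5 of these held the core (31.25%), as did 15.4% of promoters of all genes kept and 13.6% of 27305 promoters in the table. Of the 8 with a promoter that were called lower, GCLM, GPX2 and CBR1, a carbonyl reductase, held it; their windows are shown in the direction of transcription with the core, here on the opposite strand, in capitals.
GCLM, chr1:93909446-93909474, minus strand: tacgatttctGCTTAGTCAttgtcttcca
GPX2, chr14:64942849-64942877, minus strand: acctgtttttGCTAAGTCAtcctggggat
CBR1, chr21:36069855-36069883, plus strand: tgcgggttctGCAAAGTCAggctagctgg
The core begins at -34 from the start in GCLM, at -122 in GPX2 and at -159 in CBR1. Over all genes kept, those with the core had a median log2 ratio of -0.05, as had those without. A match of letters is not a binding site, and its absence from the other windows says nothing of more distant elements.

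On library totals, genes for making and degrading proteins lay slightly lower in near unison, while 60.1% of all genes had a ratio below 1. All 45 cytosolic ribosomal protein genes kept had a ratio below 1, from 0.824 for RPL7 (36182 and 31163 counts) to 0.997 for RPS24; 42 intervals lay below 1 and 0 were called. Their median log2 ratio was -0.16, -0.12 on nuclear totals with 42 of 45 below 1, and -0.08 after the length adjustment with 40 of 45. Many ribosomal protein genes have processed pseudogenes that can take or lend reads. The same held for 27 of 27 proteasome subunits, which form the protease for ubiquitin-tagged proteins, with a median of -0.16 and PSMB7 lowest at 0.812 (0.787 to 0.838). Of 17 heat shock chaperones 17 had a ratio below 1, with a median of -0.12 and 12 below after the length adjustment. DNAJB1, a co-chaperone of HSP70, was the one called lower, with 6847 and 5589 counts; on nuclear totals and after the length adjustment 0 were. Translation initiation and elongation factors had 26 of 28 below 1, with 21 on nuclear totals and 22 after the length adjustment. MYC with ribosome biogenesis factors had 18 of 20, MYC itself having 15952 and 13993 counts. With miR-182-5p the ratios to the same NC library were 0.690 for RPL7, 0.713 for PSMB7, 0.746 for DNAJB1 and 0.827 for MYC. HSF1 of the chaperone list stood at 0.853 with miR-183-5p and 0.956 with miR-182-5p. Whether the lower ratios belong to miR-183-5p was not tested. Of 22 unfolded protein and stress response genes 10 were above 1, with a median of -0.01 and HSPA5, the main chaperone of the endoplasmic reticulum, at 1.06 (1.05 to 1.07).

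Mitochondrially encoded genes of energy metabolism lay above 1 and most nuclear-encoded ones below. All 8 mitochondrially encoded protein genes kept had a ratio above 1 (39.9% of all genes did), with a median log2 ratio of 0.21, and 2 of the 8 were called higher (5 after the length adjustment). MT-CO2, a cytochrome c oxidase subunit, had 792527 counts in NC, 1117381 with miR-183-5p and 1044525 with miR-182-5p, a ratio of 1.349 (1.345 to 1.353). MT-CO1 of the same complex had 1955668 and 2556562, a ratio of 1.251, and MT-ND2, a complex I subunit, stood lowest at 1.07. Their summed level was 73530 CPM in NC and 89100 CPM with miR-183-5p. Nuclear-encoded subunits of the same complexes had 44 of 54 ratios below 1 and a median of -0.10, with 1 gene called each way; 33 of the 54 are in the shortest quintile, and the length adjustment left -0.02. NDUFV3, an accessory complex I subunit, was the high one, with 744 and 1181 counts (1.52, 1.38 to 1.67). Mitochondrial ribosomal proteins had 4 of 59 called lower (5.18% of all genes were) and 0 higher, with 2 lower on nuclear totals and 1 after the length adjustment, a median of -0.14 and -0.04 after the adjustment, led by MRPL34 at 0.730 (0.675 to 0.791). Glycolytic enzymes kept were 9 of 9 below 1 (60.1% of all genes were), from PGAM1 at 0.817 to HK2 at 0.987, with 0 called. Their median was -0.15. With miR-182-5p MRPL34 stood at 0.660, PGAM1 at 0.717 and NDUFV3 at 1.48.

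Lipid synthesis genes stood a little above the rest. Of 21 cholesterol synthesis and uptake genes 12 had a ratio above 1 (39.9% of all genes did), with a median log2 ratio of 0.01. SCD, which makes monounsaturated fatty acids, had 79706, 102635 and 109443 counts, a ratio of 1.23 (1.22 to 1.24), and FASN, the fatty acid synthase, stood at 1.09. The fatty acid list as a whole, with 7 of 10 above 1, lay on the other side of the all-gene median when genes with overlap on either strand were left out. ABC transporters, which pump lipids, bile constituents and drugs, had 16 of 23 above 1 and a median of 0.15, with ABCB9 highest at 1.26 (1.12 to 1.42). The drug pump ABCG2 was their lowest, at 0.809 (0.743 to 0.881).

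Most actin-binding, S100 and annexin genes had ratios below 1 and most genes of the mesenchymal list ratios above 1. Of all genes 60.1% had a ratio below 1, 39.9% had one above 1 and 5.18% were called lower. Of 40 actin and actin-binding genes 36 had a ratio below 1, with a median of -0.14, and PLS1, an actin bundler of microvilli, and ARPC5, a subunit of the branching complex, were called lower at 0.786 and 0.798; on nuclear totals neither was. S100 proteins and annexins had 17 of 18 below 1 and a median of -0.20, led by S100A6, a calcium sensor, with 46706 and 37987 counts (0.778, 0.768 to 0.789), the 1 called lower; on nuclear totals and after the length adjustment 0 were. The list of mesenchymal and epithelial-mesenchymal transition genes had 10 of 11 above 1 and 7 intervals above 1, with a median of 0.11 and 0 called. Fibronectin (FN1) had 30423 counts in NC, 38190 with miR-183-5p and 33104 with miR-182-5p, a ratio of 1.201 (1.18 to 1.22). SNAI1, a repressor of E-cadherin, stood at 0.904 and VIM at 1.001. Of 7 keratins 6 were below 1, with KRT8 at 0.877 and KRT18 at 0.890, but after the length adjustment the list moved above the all-gene median.

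Immune signalling lists held calls in both directions on library totals, on which 4.14% of all genes were called higher and 5.18% lower. NFKBIA, the feedback inhibitor of NF-kB, had 2478 counts in NC, 1768 with miR-183-5p and 1928 with miR-182-5p, a ratio of 0.683 (0.642 to 0.726), and NFKBIE, a related inhibitor, stood at 0.754. The adhesion molecule ICAM1 stood at 1.1995 (1.15 to 1.249). Of 17 genes of that pathway 3 were called lower and 1 higher, which became 2 lower and 3 higher on nuclear totals and 1 lower and 2 higher after the length adjustment. Among 9 epithelial chemokines, with IL18 in the list, the neutrophil attractant CXCL1 had 299, 203 and 410 counts, so it was low with miR-183-5p and high with miR-182-5p. CCL28, a mucosal chemokine, had 154, 256 and 234 counts, and IL18, an inflammasome cytokine, 159, 277 and 233; both reached 200 counts only in the microRNA libraries. Of 32 interferon-stimulated genes 17 were above 1, with 3 called higher and 1 lower. RSAD2 (viperin) had 120 and 208 counts, CMPK2 had 206 and 288, and OAS2, a sensor of double-stranded RNA, had 2022 and 2704 (1.28, 1.21 to 1.36). USP18, which damps interferon signalling, was the lower one, with 807 and 658 counts; 0 of the list were called lower on nuclear totals (3 higher) or after the length adjustment (5 higher).

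Transcription factors of liver and bile duct lay apart from each other. CEBPA, a differentiation factor of hepatocytes, had 681 counts in NC, 461 with miR-183-5p and 320 with miR-182-5p, a ratio of 0.648 (0.574 to 0.730), and FOXA3 was lower as given above. ONECUT2 had 6543, 8850 and 10588 counts, a ratio of 1.29 (1.253 to 1.34). TFEB, the master regulator of lysosomal genes, had 293 counts in NC, 193 with miR-183-5p and 300 with miR-182-5p, while lysosomal genes as a list had a median of -0.04, near that of all genes. VGLL4, a partner of TEAD factors, had 1447, 2000 and 1182 counts, a ratio of 1.32 (1.24 to 1.42) that was high with miR-183-5p alone, and YAP1 itself stood at 0.827 (0.805 to 0.851).

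Of 30 mitosis genes 0 were called, and of 30 DNA replication genes 0, and both lists changed side of the all-gene median after the length adjustment. The calls of the lists that follow stand beside 5.18% of all genes called lower and 4.14% called higher. Among G1 regulators CCNE1, a cyclin that starts S phase, had 1766 and 1339 counts (0.725, 0.675 to 0.779) and the CDK4 inhibitor CDKN2D had 279 and 214, 2 of 19 called lower and 0 higher. Histone genes kept had 6 of 18 called lower and 0 higher, and a median of -0.20, with H1-2 (612 and 399 counts) and H2AC6 (1191 and 856). The count threshold was met in only 1 library by 3 of the 18, including at least 1 of those called lower, so it helped shape this count. Of the 18, 14 are in the shortest quintile, and copies of histone genes share sequence. On nuclear totals 4 were called lower and 0 higher, and after the length adjustment 4 lower and 1 higher. Of p53 targets TIGAR, which diverts glucose to NADPH production, had 1700 and 1287 counts (0.724, 0.673 to 0.779), and CDKN1A stood at 1.02; 3 of 21 targets were called lower, 1 on nuclear totals and 2 after the length adjustment. Pro-apoptotic BAD (1022 and 757 counts) and BID (2309 and 1879) were the 2 of 12 BCL2 family genes called lower; on nuclear totals and after the length adjustment 1 was called lower and 1 higher. FOXO factors and FOXO-activated genes had 2 of 19 called higher, FOXO4 at 1.29 (1.205 to 1.39) and GADD45B with 122 and 202 counts, and 1 lower, GADD45A at 0.781, with 0 lower on nuclear totals or after the length adjustment.

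Prostaglandin genes included the other enzymes around HPGD. PTGS2 (COX-2), which makes the prostaglandin precursor, had 259 counts in NC, 386 with miR-183-5p and 380 with miR-182-5p, a ratio of 1.43 (1.22 to 1.68). PTGR1, which degrades prostaglandins and leukotrienes further, had 2355 and 1938 counts, and CBR1 had 2241 and 1838. ABCC4, which exports prostaglandins, stood at 1.17 (1.12 to 1.23). Of 9 genes 3 were called lower and 1 higher, beside 5.18% and 4.14% of all genes. On nuclear totals or after the length adjustment 1 was called each way.

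C2H2 zinc finger genes made up the largest list and spread widely. Of 274 genes 23 were called higher and 21 lower, beside 4.14% and 5.18% of all genes, with a median log2 ratio of -0.01. The count threshold was met in only 1 library by 14 of the 274, as by 166 of all 8354 genes. Each of these entered through the library with more counts, so the threshold itself adds to the calls. On nuclear totals 24 were higher and 16 lower, and after the length adjustment 27 and 16. ZNF461 had 212 counts in NC, 430 with miR-183-5p and 409 with miR-182-5p, ZNF337 had 699, 1259 and 815, and ZNF595 had 317, 166 and 203. Their median count in NC was 996, against 2290 over all genes. Among mitochondrial carriers SLC25A35 had 231 counts in NC, 448 with miR-183-5p and 347 with miR-182-5p, 1 of 3 called higher among 31, with 3 called lower (2 on nuclear totals or after the length adjustment). Mucin-related genes had 3 of 11 called lower (5.18% of all genes were), the glycosyltransferase GCNT3 (12368 and 9758 counts), the secretory factor SPDEF (2636 and 2106) and MUC4 (342 and 285), while MUC13 stood at 1.18 (1.15 to 1.203). On nuclear totals 2 were called lower and 1 higher, and after the length adjustment the list median, 0.03, was above that of all genes.

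Transcript length ordered the ratios across all genes. Length was taken from the deposited counts and FPKM (fragments scaled by transcript length and library size). From the shortest to the longest quintile the median log2 ratio was -0.12, -0.07, -0.04, -0.02 and 0.02. Called lower were 10.7% of the shortest and 2.21% of the longest. Of the lists named above, ribosomal proteins (22 of 45), mitochondrial ribosomal proteins (40 of 59) and S100 proteins and annexins (11 of 18) have many members in the shortest quintile, while ABC transporters have 0 of 23. All 8 mitochondrially encoded genes are in the shortest quintile, whose median log2 ratio was -0.12, and had ratios above 1; 2 of the 8, MT-CO2 and MT-CO1, were called higher.

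**Figure D5:**
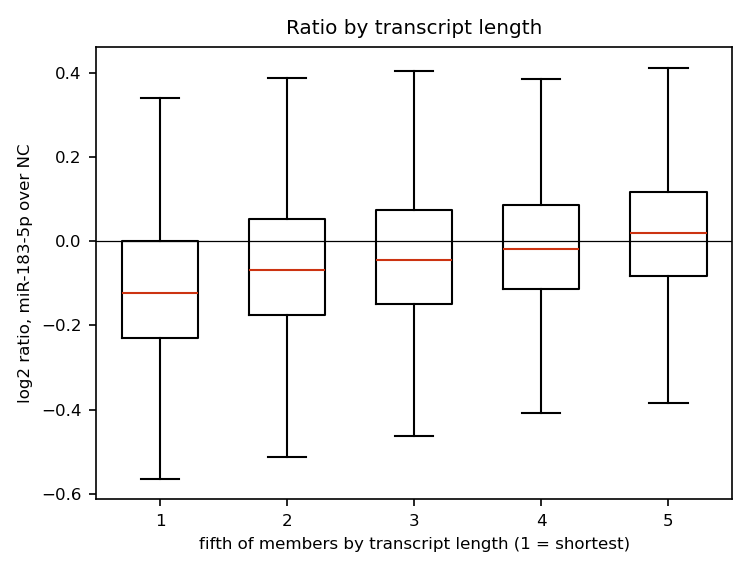
Boxes show the quartiles and median (red) of the log2 ratio of miR-183-5p over NC in 5 equal classes of transcript length, with whiskers to 1.5 interquartile ranges and no outlying points. The median climbs from -0.12 in the shortest quintile to 0.02 in the longest.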

How the data were processed

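RNA sequencing of 3 QBC-939 libraries was used, 1 per group, without replicates. The submitters' processing notes name cutadapt 1.9 and FastQC and list GRCm38, which is a mouse build. The gene identifiers are human, and 97.29% of them occur in GENCODE release 29 on GRCh38, the build used here for sites. Of the 30085 genes found there, 17859 had identical coordinates and 26136 shared a start or an end. The gene models searched for sites can thus differ from those counted. For the aligner, the counter and its use of strand, nothing is given in the sources used here. Per the file headers, the authors deposited whole-number gene counts and FPKM (fragments scaled by transcript length and library size). No deposited column of sample values was left unused.

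Counts were divided by the library total, and the ratio of both libraries got an exact Clopper-Pearson 95% interval (scipy 1.17.1), which covers counting error only. PCR reads are not independent molecules. The FPKM values gave transcript lengths and an alternative scale with a pseudocount of 1. No test across genes was made. Genes were named by rule: the 10 most extreme ratios each way, the same 10 among genes free of overlap on either strand, the 2 highest and 2 lowest of each list with an interval excluding 1, all reported targets, and the 8 genes of lowest ratio that hold a seed site. Further examples from the lists were picked once their values were known. The genes, the 58 lists and the settings were chosen with earlier results of these data known. The ratio and its calls were also run on simulated counts that held counting error only. That run had no variation between cultures or libraries, so it says nothing of how the calls would hold in replicates. Alternatives changed the scaling, the count minimum and the overlap filter; the comparison at like transcript length was added after seeing the data. Python 3.11.15, pandas 2.3.3 and numpy 2.4.6 were used. Some genes are not reported here, in the text or as labels in the plots.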

Additional observations from a re-analysis of the deposited data

How the results depend on the processing

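No paired analysis was possible because each group is 1 library, and for the same reason no library could be left out. Genes called higher and lower (346 and 433) numbered 683 and 650 with a minimum of 50 counts, 108 and 208 with 1000 counts, 196 and 260 without any overlap on either strand, and 108 and 141 on log2 of FPKM + 1. Without the overlap filter 538 were higher, and after the length adjustment 248 were lower. Past 1.5-fold (80 and 69) there were 279 and 182 with 50 counts, 11 and 12 with 1000 counts, 39 and 40 without overlap, 149 and 123 without the overlap filter, and 6 and 15 on FPKM. Past 2-fold (11 and 9) there were 91 and 52 with 50 counts, 1 and 2 with 1000 counts, 3 and 5 without overlap, 40 and 36 without the filter, and 2 and 1 on FPKM; on nuclear totals or scaled by the median ratio 5 were lower. Fewer or more genes entered under the count and overlap settings. The FPKM pseudocount shrinks ratios of low genes. The median log2 ratio of all genes (-0.0431) was 0.0006 on nuclear totals, 0 by construction when scaled by the median ratio or by length, -0.0388 with 50 counts and -0.0178 on FPKM. The difference between genes with and without a seed site (0.016) was -0.0158 after the length adjustment, -0.0079 for 8-base sites and -0.0082 for at least 2 sites; the cause was not tested. Scaled by the median ratio, 441 genes were higher and 295 lower. Relative to the all-gene median, 16 of 55 lists changed side under at least 1 of 10 settings. These settings include the main one, and scaling to nuclear totals or by the median ratio could not change a side. Depth limits the genes near the minimum: over genes with about 200 counts in NC, the upper bound of the interval was by median 1.473 times the lower.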
